A study of Arabidopsis thaliana with 6 samples.

Results

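BHLH101 (AT5G04150) and PYE (POPEYE, AT3G47640) are a pair of genes of the Arabidopsis iron deficiency response, and they are 2 of the 13355 genes that could be named on the arrays. They were taken by name from the probe annotation, in which each has 1 probe set, and they were chosen by their measured difference between the lines, since both had been lower in line A6 than in wild type in an earlier look at these arrays. The difference between A6 and wild type is therefore given for these genes as a description, without a test. Expression was measured with Affymetrix ATH1 arrays in rosette leaves 3 to 6 of plants aged 3 weeks, kept in days of 20 h light and 4 h dark at 20 °C. Line A6 and wild type had 3 arrays each, every one called a biological replicate in the labels, which do not say whether the plants were grown apart, so the spread given here is that between these samples, which may be technical. A6 is a line deficient in N6-methyladenosine (m6A), and it is known as an mta mutant kept alive by a copy of MTA, which encodes the mRNA methyltransferase's catalytic subunit, driven by the ABI3 promoter that is active in embryos. It is a single line, so effects of low methylation and other effects of the line cannot be told apart, and the arrays do not measure methylation.

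Plants sense a shortage of iron through a cascade of basic helix-loop-helix (bHLH) transcription factors. Factors of subgroup IVc, namely ILR3, bHLH34, bHLH104 and bHLH115, act with bHLH121 to activate a second layer, which contains PYE and the subgroup Ib genes, of which BHLH101 is a member. Subgroup Ib factors partner with FIT to switch on iron uptake in the root, while PYE is a repressor that restrains genes of iron transport and storage and can dimerise with ILR3. In leaves, where iron is needed for photosynthetic complexes and chlorophyll synthesis, transcripts of BHLH101 and PYE are known to increase when iron is short.

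The values are log2 units centred on the median of the 6 arrays for each probe set. They give differences between arrays but no absolute level, so neither gene can be called high or low in leaves, the level of BHLH101 cannot be set against that of PYE, and the leaf identity of the samples cannot be checked by markers being present or absent. In bulk leaf tissue fewer cells of a type and less RNA per cell cannot be told apart. Among the array controls, the probe set of the large ribosomal RNA had values of 0.83, 0.51 and 0.64 in A6, against -0.72, -1.06 and -0.51 in wild type. The mean 3′ minus 5′ difference over 6 pairs of control probe sets, a sign of RNA quality, lay between -0.03 and -0.02 in A6 and between 0.02 and 0.09 in wild type. The part of the ribosomal RNA signal in the results was not tested. Wild-type replicate 1 stood somewhat apart, with an array weight of 0.33 in limma against 0.69 to 3.19 for the other arrays. In a limma fit 8.65% of the 13355 genes passed an adjusted p of 0.05, 4.32% higher and 4.33% lower in A6.

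BHLH101 was lower on all arrays of A6 than on any wild-type array. Its centred log2 values were -0.36, -0.34 and -0.49 in A6 replicates 1 to 3, against 0.83, 0.52 and 0.34 in wild-type replicates 1 to 3. The lines did not overlap, and the lowest wild-type value lay 0.68 above the highest A6 value. The means were -0.40 ± 0.08 in A6 and 0.56 ± 0.25 in wild type (SD, n = 3 each), a difference of -0.96. If the log base is 2, as RMA normally gives, the A6 level was 51.5% of that of wild type.

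PYE had values of -0.30, -0.26 and -0.33 in A6, against 0.26, 0.92 and 0.73 in wild type. Again the lines did not overlap, with a gap of 0.52 between the nearest values. The means were -0.30 ± 0.04 in A6 and 0.64 ± 0.34 in wild type (SD, n = 3 each), a difference of -0.93, or an A6 level 52.3% of that of wild type. The lines did not overlap for 26.9% of all genes. By size of the fall BHLH101 stood in place 90 and PYE in place 96 of the 13355 genes.

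**Figure D1:**
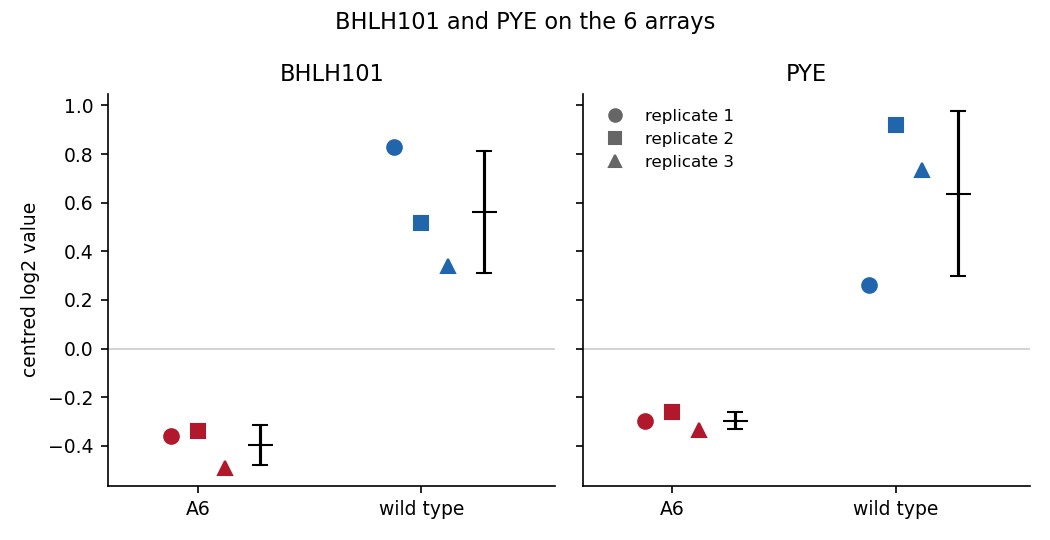
Centred log2 values of BHLH101 and PYE on each array, A6 left of wild type, with the symbol giving the replicate number and the bar the mean ± SD of 3 arrays. All A6 values lie below 0 and all wild-type values above it, and the highest wild-type array differs between the genes.

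The difference between the lines was nearly the same for both genes, and they differed by 0.02 log2 units in it. Their patterns among the wild-type arrays parted on replicate 1, which had the highest BHLH101 value and the lowest wild-type PYE value. From replicate 2 to replicate 3 both fell, BHLH101 from 0.52 to 0.34 and PYE from 0.92 to 0.73. The value of BHLH101 minus that of PYE was 0.57 on wild-type replicate 1 and -0.40 and -0.39 on the other wild-type arrays. On the A6 arrays it lay between -0.16 and -0.07. The spread among replicates was also uneven. In A6 the SD of BHLH101 and PYE, 0.08 and 0.04, lay below the median SD of all genes in that line, 0.12, and in wild type both SDs, 0.25 and 0.34, lay above the median, 0.15.

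Over the 6 arrays Pearson's r between BHLH101 and PYE was 0.79, and after the mean of each line had been subtracted it was -0.73. These values describe 6 arrays, of which those of a line share the genotype, and the labels do not say whether the plants were grown apart. The first value mostly reflects the difference between the lines. The second rests mostly on the wild-type arrays, where both genes deviated more from the line mean than in A6. Both deviations were largest on wild-type replicate 1, at 0.27 for BHLH101 and -0.38 for PYE. In likeness to BHLH101 over the 6 arrays PYE came in place 1223 among all other genes, and in likeness to PYE BHLH101 came in place 1482.

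With 1 array left out the difference ranged from -1.07 to -0.82 for BHLH101 and from -1.12 to -0.79 for PYE. Since the lines do not overlap, its sign could not turn. The setting that separated the genes was the 3′ minus 5′ difference as a covariate, with which BHLH101 had a difference of -0.56 and PYE of -1.57. The covariate does not overlap between the lines. On wild-type replicates 1 to 3 it was 0.09, 0.02 and 0.04. On replicate 1, where the covariate was highest, PYE had its lowest wild-type value and BHLH101 its highest.

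**Figure D2:**
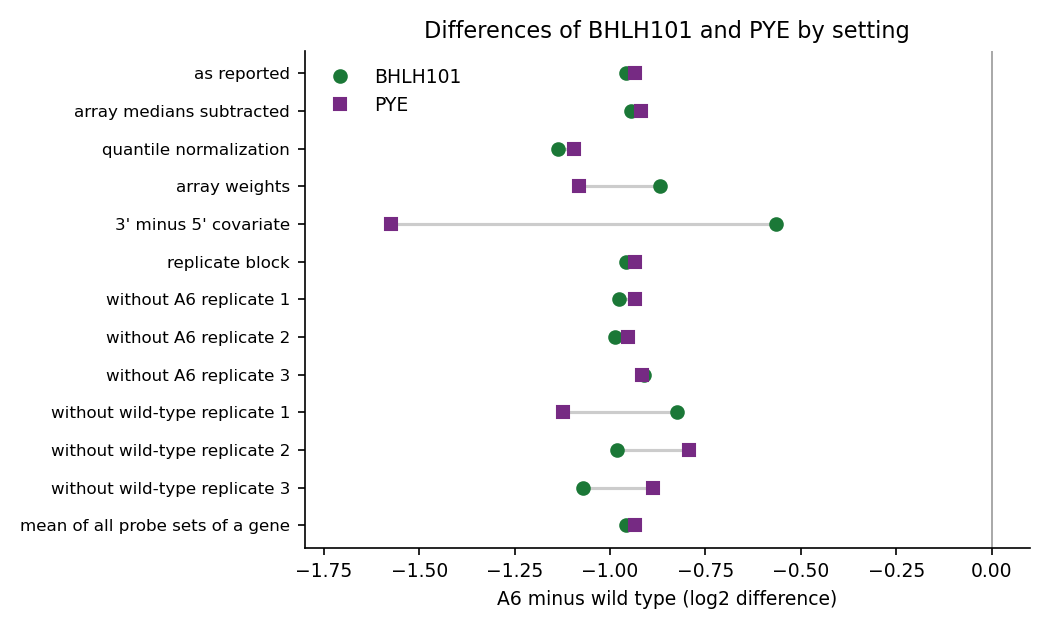
Log2 difference of BHLH101 (circles) and PYE (squares), A6 minus wild type, as reported and under each alternative setting, 1 per line of the plot. All points lie below 0, and the points of the 2 genes are farthest apart with the 3′ minus 5′ covariate, at -0.56 for BHLH101 and -1.57 for PYE.

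The genes around BHLH101 and PYE in the iron response did not move as a block. Of 22 other listed regulators 12 were measured under a name or locus code, of which 1 rose, 1 fell and 10 did not pass the limma test. Of 47 listed genes of iron uptake, chelation and transport 7 were measured, with 1 rise and 1 fall, and of 10 storage genes 2 were measured and neither passed. In all, 4 of 21 genes passed (19%), against 8.65% of all genes, and 12 of the 21 had lower values in A6 (57.1%), against 55.7% of all genes. The median difference was -0.06 over the 21 genes and -0.03 over all genes. The count of 4 was 0 without wild-type replicate 2 or 3 or A6 replicate 1, 1 without A6 replicate 2, 1 with the 3′ minus 5′ covariate and 0 with an ordinary equal-variance test. It was 6 with array weights, 5 without wild-type replicate 1, and 3 without A6 replicate 3, with quantile normalization or with the replicate number as a block. FIT, the other Ib genes, the main iron transporters and the ferritins were not measured under a name and are not analysed here.

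Of the IVc factors, which act upstream of BHLH101 and PYE, all 4 were measured and none passed, although 3 had an unadjusted p under 0.05 in limma, as did 2933 of all genes (22.0%). bHLH104 had values of -0.10, -0.13 and -0.17 in A6, against 0.10, 0.47 and 0.43 in wild type, a difference of -0.46 (SE 0.12, adjusted p = 0.0523). ILR3 had -0.12, -0.08 and -0.17 in A6, against 0.08, 0.23 and 0.22 in wild type, a difference of -0.30 (SE 0.10, adjusted p = 0.092). For both the lines did not overlap, as for 26.9% of all genes, and wild-type replicate 1 was the lowest wild-type array, as it was for PYE. bHLH104 passed without that array (difference -0.58, adjusted p = 0.0078) and with array weights (adjusted p = 0.00464). It did not pass without any other array (adjusted p 0.131 to 0.162) or with the replicate number as a block (0.100). ILR3 passed with array weights (adjusted p = 0.0207). It did not pass without wild-type replicate 1 (adjusted p = 0.0508), without any other array (0.182 to 0.241) or with the block (0.181). For bHLH104 the covariate gave a difference of -0.84 (adjusted p = 0.0799).

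The other IVc factors lay on the opposite side of 0. bHLH115 had 0.07, 0.29 and 0.04 in A6, against -0.04, -0.19 and -0.17 in wild type, and here too the lines did not overlap. Its difference was 0.27 (SE 0.11, adjusted p = 0.179), and 0.45 (adjusted p = 0.300) with the covariate. bHLH34 had a difference of 0.18 with a 95% interval from -0.33 to 0.69, and -0.03 without A6 replicate 3. bHLH121, the IVb factor that works with the IVc group, had -0.13 (95% interval -0.37 to 0.11). Within this layer the differences ran from -0.46 to 0.27. BHLH101 and PYE, with -0.96 and -0.93, were chosen by this difference, so the layers cannot be compared by size.

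The 2 regulators that passed are known here by locus code. AT1G47400 had values of -0.20, -0.82 and -0.18 in A6, against 0.18, 1.57 and 1.19 in wild type. It fell by 1.39 log2 units (SE 0.34, adjusted p = 0.0417), more than BHLH101 or PYE, but it had adjusted p = 0.0733 with the replicate number as a block and 0.0687 with quantile normalization. With the 3′ minus 5′ covariate its difference was -2.83 (adjusted p = 0.0196). It passed without wild-type replicate 1 and not without any other array (adjusted p 0.0805 to 0.139). AT1G18910 had 0.19, 0.51 and 0.25 in A6, against -0.19, -0.35 and -0.55 in wild type, and it rose by 0.68 (SE 0.13, adjusted p = 0.0193), with adjusted p between 0.0569 and 0.071 without A6 replicate 1 or 2 or wild-type replicate 2 or 3. The covariate put its difference at 0.92 (adjusted p = 0.118).

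The remaining listed regulators differed little. NAI1, a bHLH factor known for control of endoplasmic reticulum bodies, had a difference of -0.06 (95% interval -0.30 to 0.17). AT4G37850, AT2G22760 and AT2G22750 had -0.17, -0.13 and 0.09. AT1G74770 had -0.12 on the probe set used and -0.11 on its other probe set. The adjusted p-values of these 5 genes lay between 0.509 and 0.782.

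**Figure D3:**
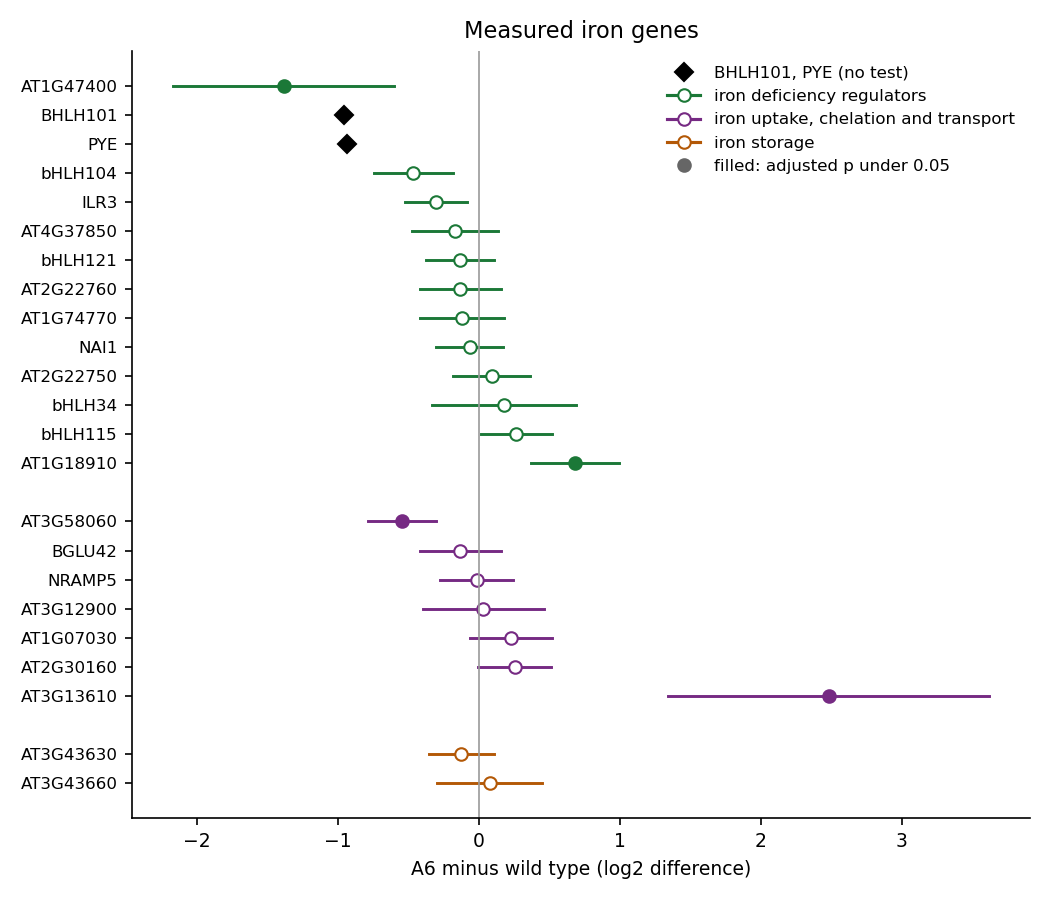
Log2 difference, A6 minus wild type, of the 23 measured iron genes in the groups regulators, uptake with chelation and transport, and storage, from top to bottom, with 95% intervals from limma. Diamonds mark BHLH101 and PYE, which carry no test, and filled circles mark the 4 genes with adjusted p under 0.05, of which AT1G47400 and AT3G58060 lie below 0 and AT1G18910 and AT3G13610 above it.

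Among uptake and transport genes the largest change was a rise. AT3G13610, annotated as F6′H1, is the hydroxylase that commits feruloyl-CoA to coumarins, which roots secrete to mobilise iron and which plants also make in defence. It had values of 1.86, 2.71 and 0.48 in A6, against -0.71, -0.48 and -1.20 in wild type, a rise of 2.48 (SE 0.49, adjusted p = 0.0196). It did not pass without wild-type replicate 2 (adjusted p = 0.0552) or 3 (0.068) or A6 replicate 1 (0.0844), nor with the 3′ minus 5′ covariate (difference 2.75, adjusted p = 0.191).

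AT3G58060 had -0.41, -0.41 and -0.19 in A6, against 0.24, 0.19 and 0.20 in wild type, and it fell by 0.54 (SE 0.10, adjusted p = 0.0165). It had adjusted p-values of 0.0527 to 0.0856 without A6 replicate 1 or 2 or wild-type replicate 2 or 3. Its difference with the 3′ minus 5′ covariate was -0.53 (adjusted p = 0.225). Of the 5 that did not pass, AT2G30160 and AT1G07030 had differences of 0.25 and 0.23 (adjusted p = 0.212 and 0.331). NRAMP5, of a family of metal transporters, had -0.01, BGLU42, a beta-glucosidase linked to coumarin secretion by roots, -0.13, and AT3G12900 0.03. The storage genes AT3G43630 and AT3G43660 had -0.12 and 0.08, with 95% intervals between -0.36 and 0.45.

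No measured gene passed in the lists of iron use and of other metals, while 8.65% of all genes passed. In each list 1 gene had an unadjusted p under 0.05 in limma, namely ISU1, PORB and bZIP19, as did 22.0% of all genes. Of 3 genes of iron-sulfur cluster assembly, the mitochondrial scaffold ISU1 had a difference of -0.25 (SE 0.10, adjusted p = 0.15) and the plastid factor HCF101 -0.16. Of 2 tetrapyrrole genes, PORB, which reduces protochlorophyllide, had 0.52 (SE 0.15, adjusted p = 0.0668) and the methyltransferase CHLM -0.03. PORB passed without wild-type replicate 1 (0.65, adjusted p = 0.0143) and with array weights or quantile normalization, and had 0.80 (adjusted p = 0.178) with the covariate. Of 3 copper and zinc genes, bZIP19, a transcription factor of the zinc deficiency response, had -0.48 (SE 0.17, adjusted p = 0.126) and CCS, the copper chaperone of superoxide dismutase, -0.21. bZIP19 passed without wild-type replicate 1 (-0.63, adjusted p = 0.0228) and with array weights (-0.57, adjusted p = 0.0126), and its value under the 3′ minus 5′ covariate was -1.04 (adjusted p = 0.0848).

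Among 9 measured bHLH genes from outside the iron response 1 fell and 1 rose (22.2%, against 8.65% of all genes). LHW, which acts in vascular patterning, fell by 0.61 (SE 0.14, adjusted p = 0.0337), and ALC, known from fruit opening, rose by 0.49 (SE 0.13, adjusted p = 0.0493). Both passed without wild-type replicate 1 and not without any other array, and neither passed with the 3′ minus 5′ covariate, where LHW had a difference of -0.93 (adjusted p = 0.111) and ALC of 0.62 (adjusted p = 0.237). With the replicate number as a block LHW passed (adjusted p = 0.0476) and ALC did not (adjusted p = 0.118). The other 7 had differences between -0.30 and 0.15.

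Markers of root, vascular tissue and leaf gave little to go on. Of 13 root markers EXPA7 and PYK10 were measured, with differences of -0.13 and -0.12 (adjusted p = 0.627 and 0.735). Of 11 vascular markers SWEET11 was measured, with -0.23 (adjusted p = 0.397). All 4 of 17 leaf photosynthesis markers that were measured had higher values in A6, as had 5913 of all 13355 genes. None of these markers passed, and the lowest p-values were those of PSAN with 0.32 (adjusted p = 0.0739) and SBPASE with 0.35 (adjusted p = 0.269). Limma gave an unadjusted p under 0.05 for 1 of these 7 markers, PSAN, and for 22.0% of all genes. SBPASE passed without wild-type replicate 1 (0.54, adjusted p = 0.0238) and, as PSAN did, with array weights. The part of tissue makeup in the values of BHLH101 and PYE was not tested.

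The genes most like BHLH101 over the 6 arrays, by Pearson's r, were AT3G19340 (0.995), AT4G26210 (0.995), AT1G14770 (0.992), AT4G36140 (0.992) and AT1G14730 (0.991). Among genes with a symbol they were MTP11, a manganese transporter of the cation diffusion facilitator family (0.983), UGT80B1, a sterol glucosyltransferase (0.981), and the protease inhibitor SERPIN1 (0.976). These profiles have the shape of that of BHLH101 at a smaller size. MTP11, for example, had -0.15, -0.20 and -0.13 in A6, against 0.36, 0.22 and 0.13 in wild type, a difference of -0.40.

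For PYE the most similar genes were AT1G33440 (0.998), AT2G39000 (0.997), AT3G61210 (0.995), APS3, an ATP sulfurylase of sulfate assimilation (0.994), and AT5G59930 (0.994). CRK (AT4G01710) and BGLU33, a beta-glucosidase, had 0.994 each. All of these were lower on wild-type replicate 1 than on the other wild-type arrays. APS3 had -0.20, -0.12 and -0.23 in A6, against 0.12, 0.57 and 0.52 in wild type.

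The upstream factors bHLH104 and ILR3 were close to this group. With r of 0.993 and 0.988 to PYE they took places 10 and 27 among all other genes, and AT1G47400, with 0.949, took place 264. With the line means subtracted, r to PYE was 0.98 for bHLH104, 0.92 for ILR3 and 0.85 for AT1G47400. This second r rests mainly on the wild-type arrays, where PYE deviated from the line mean by -0.38, 0.28 and 0.10 on replicates 1 to 3. On the A6 arrays PYE deviated by 0.0008, 0.04 and -0.04. How many of all genes reach such values with the line means subtracted was not counted. The other upstream factors were not as like PYE over the 6 arrays, with r of 0.78 for bHLH121 (place 1574), -0.54 for bHLH34 (place 10690) and -0.85 for bHLH115 (place 12676). The r of bHLH104, ILR3 and AT1G47400 to BHLH101 was 0.74, 0.84 and 0.66 over the 6 arrays, and below 0 for these 3 with the line means subtracted (-0.80, -0.63 and -0.77). Such likeness is common with 6 arrays. An r above 0.9 to PYE was reached by 677 genes (5.07%) and to BHLH101 by 405 (3.03%), and 76 genes reached it for both, which is 18.8% of the BHLH101 list and 11.2% of the PYE list.

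**Figure D4:**
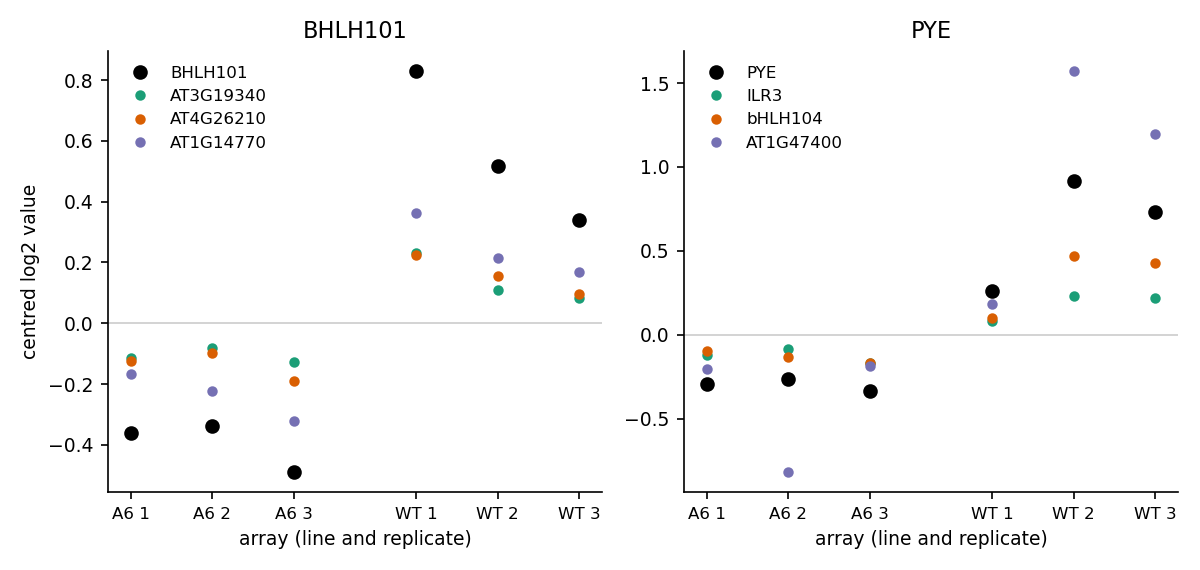
Centred log2 values by array, 3 A6 arrays left of 3 wild-type (WT) arrays, for BHLH101 with the 3 most similar genes (left panel) and for PYE with bHLH104, ILR3 and AT1G47400 (right panel). Wild-type replicate 1 is the highest array in the left panel and the lowest wild-type array in the right panel.

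The nearest measured genes on the chromosome had differences some below 0 and some above it. Since BHLH101 and PYE were chosen by their own difference, its size against that of the neighbours is no test. In the order of the reference annotation, AT5G04120 and GYRB3 (AT5G04110) on one side of BHLH101 had differences of 0.02 and -0.24, and AT5G04160 and AT5G04170 on the other side had 0.34 and -0.43. Around PYE, AT3G47630 and AT3G47610 had -0.10 each, and AT3G47650 and AT3G47660 had 0.17 and 0.03. None of these 8 genes passed in limma (adjusted p 0.115 to 0.954), and GYRB3 and AT5G04170 had an unadjusted p under 0.05, a threshold that 22.0% of all genes passed.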

How the data were processed

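Probe set values deposited by the authors were used as log2 values. The authors used RMA (per the submitters' processing notes), with version, log base and genome build not given in the sources used here. Labelling used the Affymetrix 3′ IVT Express kit, per the labels' protocols. Each probe set had also been centred on its median over the 6 arrays (within 5.0e-07), a step that the sources used here do not describe, so scale and centring rest on the values and fold changes assume base 2. Centred values allow no filter on dim probe sets, and the number of arrays limits the precision. Of 22810 probe sets, 64 controls were left out. Of the 22746 tested, 13513 paired with 1 gene in the platform annotation and 13436 of these matched a RefSeq gene of TAIR10.1, used for names and gene order only; 503 paired with several genes and name none, and 8730 were not listed. Genes with several probe sets were represented by the plainest suffix, then the lowest number. Line was the only term in the limma fit (version 3.58.1, with R 4.3.3; lmFit, then eBayes), two-sided, with Benjamini-Hochberg adjustment over the 22746 probe sets, and "passed" means adjusted p under 0.05. All adjusted p-values are from this tool unless another test is named, and log2 differences are A6 minus wild type. The procedure was tested on simulated data with independent noise and no differences in quality between arrays, so that test does not bear on array quality. Members and lists were chosen with earlier results of these arrays known. Named genes are BHLH101 and PYE, all measured genes of the 3 iron lists, up to 5 called genes of each other list or else the 2 with the lowest p, the 5 most similar genes and the 3 most similar with a symbol for BHLH101 and PYE, and the 2 nearest measured genes on each side. Alternatives were other scaling, array weights, robust eBayes, a 3′ minus 5′ covariate, the replicate number as a block, each array left out, other handling of probe sets and an ordinary equal-variance test. The sequence comparison that had been planned was not run, because no sequence table was used here.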

Additional observations from a re-analysis of the deposited data

How the results depend on the processing

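Of the 12 alternatives run for each member, the 3′ minus 5′ covariate moved the difference by more than the spread between replicates, to -0.56 for BHLH101 and -1.57 for PYE; the genes had been selected for their direction. Probe sets called numbered 2222 as reported, 4691 with array weights, 290 with the 3′ minus 5′ covariate, 1166 among probe sets with 1 gene (fewer were tested), 229 with the ordinary equal-variance test and 766 to 3484 when 1 array was left out. The 4 iron genes called became 6 with array weights, 3 with quantile normalization or the replicate block, 1 with the covariate, 0 with the ordinary test and 0 to 5 when 1 array was left out. The 2 genes called in the other lists became 6 with array weights, 0 with the covariate, 1 with the replicate block (LHW), 0 with the ordinary test and 0 to 5 when 1 array was left out. The cause was not tested.

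The labels give the lines the same replicate numbers and no shared origin, and correlations of the deviations of same-numbered arrays were -0.13, 0.18 and -0.16, so the numbers were not taken as pairs. With the replicate block the differences of BHLH101 and PYE are -0.96 and -0.93, which a block cannot change with equal numbers in each line.

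Signs turned only in genes that did not pass. With the covariate AT4G37850 had 0.26, AT2G22760 0.18, AT1G74770 0.19, NAI1 0.16, AT1G07030 -0.039, BGLU42 0.19, NRAMP5 0.12, AT3G43660 -0.21, HCF101 0.30, CHLM 0.095, CCS 0.20 and EXPA7 0.087. With array weights AT1G74770 had 0.025, AT2G22750 -0.0027, NAI1 0.017, NRAMP5 0.028, CHLM 0.028 and EXPA7 0.0038. NRAMP5 had 0.00012 after array medians were subtracted and 0.0070 with quantile normalization. With 1 array left out, ranges were -0.028 to 0.35 for bHLH34, -0.12 to 0.18 for AT3G12900, -0.10 to 0.053 for NRAMP5, -0.050 to 0.20 for AT3G43660, -0.35 to 0.037 for HCF101, -0.12 to 0.092 for CHLM and -0.22 to 0.062 for PYK10.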
